A study of Mus musculus with 20 samples.

Results

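The regions described here are the promoters of class II olfactory receptor genes on mouse autosomes other than chromosome 2. They were taken as every promoter whose gene symbol begins with Olfr on chromosomes 1 to 19, without chromosome 2 and without the class I cluster on chromosome 7 (starts between 102 and 105.9 Mb of mm10). This gave 669 of the 1074 Olfr promoters and of the 22480 promoters in all, spread over 15 chromosomes. A promoter is a probe of 2200 bp, from 2000 bp upstream to 200 bp downstream of the gene start. MBD-sequencing was run on sperm DNA of 20 males from the inbred strains C57BL/6J and FVB/N, each strain with 5 control and 5 DEHP males. Pregnant mice of both strains received the plasticizer DEHP at 300 mg/kg/day in corn oil, or corn oil only, by gavage from gestation day 9 to 19. Sperm was taken from their sons at 8 weeks of age. Every value below is the mean and SD of normalized reads that the authors deposited for a group (n = 5), since no value of a single library was used. How many litters the males of a group came from was not stated.

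Olfactory receptors are G protein-coupled receptors of the olfactory sensory neurons in the nose, and each such neuron expresses 1 receptor gene from 1 allele. Class II receptors are the tetrapod-type receptors, which sit in tandem clusters on many chromosomes, whereas class I receptors, first known from fish, sit together on chromosome 7. The clusters are rich in AT and are kept in closed chromatin outside olfactory neurons. In MBD-sequencing, a methyl binding domain pulls down DNA fragments with methylated CpG, so the reads over a promoter depend on its methylation as well as on how many CG sites it holds.

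The class label was checked on the receptor family numbers (MOR) that RefSeq lists as synonyms, in which class II families are numbered from 100 upwards. Of 660 members with such a number, 655 had a number of 100 or above. The 5 others were Olfr16, whose clone name is MOR23, Olfr455 and Olfr856-ps1, listed with number 0, and Olfr503 and Olfr504, whose numbers 34 and 40 fall in the class I range although both lie outside the chromosome 7 window. RefSeq called 659 members protein-coding and 6 pseudogenes.

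The promoters of these genes held few CG sites. The median was 8 CG sites in a promoter, with quartiles of 6 and 12 and a range of 1 to 47, against a median of 45 over all promoters. GC content was 36.9% as a median against 48.0%. Away from the gene start, the members held 0.758 to 0.991 CG sites per 200 bp on average, and 1.61 in the 200 bp after the gene start. Over all promoters that same average went from 2.09 at the far end to 12.1 after the gene start, so the rise of CG density towards the start that marks most mouse promoters was small in receptor promoters.

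The following stretches show what the assay could read at 6 promoters on which the results turn. Each is the 200 bases with the most CG sites among those of the probe that overlap no annotated exon, read from GRCm38.p6 in the direction of the gene, with each CG in capitals. Olfr71 had the highest level of all members in C57BL/6J controls, Olfr212 fell and Olfr730 rose with DEHP in C57BL/6J, Olfr453 rose with DEHP in FVB/N, Olfr432 was lower in FVB/N than in C57BL/6J, and Olfr160 (M72) is a receptor often studied in gene targeting.
Olfr71, chr4:43706878-43707077, minus strand: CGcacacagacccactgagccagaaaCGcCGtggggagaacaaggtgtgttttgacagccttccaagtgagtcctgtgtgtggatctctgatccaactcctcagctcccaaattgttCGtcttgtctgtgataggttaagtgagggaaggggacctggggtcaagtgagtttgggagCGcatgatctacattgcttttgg
Olfr212, chr6:116506244-116506443, plus strand: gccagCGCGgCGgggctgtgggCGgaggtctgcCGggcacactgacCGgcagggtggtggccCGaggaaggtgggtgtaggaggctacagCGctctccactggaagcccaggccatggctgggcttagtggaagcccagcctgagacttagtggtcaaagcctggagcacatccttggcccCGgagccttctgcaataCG
Olfr453, chr6:42742227-42742426, plus strand: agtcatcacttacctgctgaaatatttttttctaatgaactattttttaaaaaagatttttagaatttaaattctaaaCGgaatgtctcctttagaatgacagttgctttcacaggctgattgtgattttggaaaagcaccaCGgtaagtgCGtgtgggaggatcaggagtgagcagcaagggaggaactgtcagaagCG
Olfr730, chr14:50188999-50189198, minus strand: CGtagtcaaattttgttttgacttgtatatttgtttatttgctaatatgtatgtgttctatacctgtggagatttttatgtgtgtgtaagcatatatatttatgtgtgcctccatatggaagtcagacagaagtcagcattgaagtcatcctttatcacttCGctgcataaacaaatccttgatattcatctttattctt
Olfr432, chr1:174048375-174048574, plus strand: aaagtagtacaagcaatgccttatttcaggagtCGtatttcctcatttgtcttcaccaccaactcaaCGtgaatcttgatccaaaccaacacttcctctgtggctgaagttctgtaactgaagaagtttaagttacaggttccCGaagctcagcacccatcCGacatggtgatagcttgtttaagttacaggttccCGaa
Olfr160, chr9:37712953-37713152, minus strand: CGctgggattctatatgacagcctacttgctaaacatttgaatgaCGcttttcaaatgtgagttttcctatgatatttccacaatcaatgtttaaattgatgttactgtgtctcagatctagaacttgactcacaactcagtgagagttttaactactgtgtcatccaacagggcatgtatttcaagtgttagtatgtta
The Olfr212 stretch held 10 CG sites and those of Olfr71 and Olfr432 held 5 each. That of Olfr453 held 4, whereas the densest stretch of Olfr730 and of Olfr160 held only 2.

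The gene start used for the probes was often the start of the coding sequence. Of 660 members with a start codon in GENCODE, 510 (77.3%) had it within 10 bp of the gene start of the probe. Of 663 members found in GENCODE, 424 (64.0%) had their farthest annotated transcript start more than 2000 bp upstream, and therefore outside the probe, at a median distance of 4044 bp. Olfr16 is an example, with a transcript start at -6359 bp from the gene start and another at the gene start itself. For transcripts from such far starts the probe covers an intron and the sequence before the coding exon besides its first 200 bp. Of the members, 491 had an annotated transcript start within 10 bp of the gene start of the probe, so most probes still held a start. The letters TAATTA, the core bound by LIM-homeodomain factors such as Lhx2, were found in 70.9% of the members and 40.9% of all promoters. The motif TCCCNNGGGA of the Ebf factors, which like TAATTA reads the same on both strands, was found in 2.54% of the members and 5.70% of all promoters, and no overlap between both motifs was excluded. These shares were not adjusted for base composition. TAATTA holds only A and T, and median GC content was 36.9% in the members and 48.0% over all promoters. On chromosome 2, Olfr promoters had 32.9% GC and TAATTA in 84%. Whether either motif is more or less frequent than base composition gives was not tested.

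Sperm DNA was checked at imprinted promoters. H19, listed as paternally methylated, had 25.3 ± 7.3, 18.0 ± 7.0, 18.8 ± 5.7 and 17.5 ± 3.4 normalized reads (mean ± SD, n = 5) in control then DEHP males of C57BL/6J, followed by control then DEHP males of FVB/N. Wherever 4 values follow each other below, they stand in this order. Meg3, listed as paternally methylated as well, ranged from 5.2 to 25.8. Rasgrf1 is also listed as paternally methylated, but its promoter (113 CG sites) had only 2.4 to 3.7. Whether the probes of H19, Meg3 and Rasgrf1 cover the region methylated in sperm was not checked. The 7 promoters of maternally methylated genes, which lack methylation in sperm, were between 0.5 and 8.1 in every group. Snrpn (15 CG sites) was separated between the C57BL/6J groups, with 0.5 ± 0.7 in controls and 4.0 ± 1.0 in DEHP, so low promoters outside the olfactory genes moved as well. The germline promoters Ddx4, Dazl and Sycp3 were between 1.5 and 10.6.

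Levels of receptor promoters were low. The median over the 669 members was 1.9 normalized reads in control and 3.9 in DEHP males of C57BL/6J, and 1.3 and 3.5 in those of FVB/N. Over all promoters these medians were 5.0, 5.3, 3.0 and 4.9. In C57BL/6J controls 27.2% of the members were under 1 normalized read, and in FVB/N controls 37.7%, against 1.94% and 6.13% in the DEHP groups of the same strains. Among members under 1 in C57BL/6J controls, the listed means took only 6 values, 0, 0.2, 0.4, 0.5, 0.7 and 0.9, so that low promoters stepped between few levels. The spread was also wide. At means between 2 and 5 the median SD was 0.648 of the mean in C57BL/6J controls, 0.84 in FVB/N controls and 0.5 in each DEHP group, close to promoters of other genes at the same level (0.615, 0.818, 0.488 and 0.5).

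The authors kept only promoters with a minimum of read-pairs in several libraries, and 101 members were under 1 in both control groups while at 1 or more in both DEHP groups. No member showed the reverse. Members that passed through the DEHP libraries alone had to be higher there, so the number of members on each side of 0 is given as a description.

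The members fell into 43 clusters when neighbors within 1 Mb were joined, of which 24 held 5 or more promoters. These 24 hold 631 members on 13 chromosomes and are named by chromosome and letter along it. The largest are 9b (96 promoters, chromosome 9 from 37712081 to 40187278), 7e (65, chromosome 7 from 106678286 to 108896405) and 19a (59, chromosome 19 from 11828825 to 13919221).

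Clusters differed in level by a wide margin, and their order followed CG sites. In C57BL/6J controls the cluster medians went from 0.7 normalized reads in 9a and 16c to 34.9 in 4a. The 4 clusters at 10 or more were 4a, 15a (21.1), 1a (18.0) and 7a (12.85), with median CG sites of 25, 31, 18 and 17.5. The 11 clusters under 2 all had medians of 6 to 8.5 CG sites, among them 9a, 9b, 10b, 14b, 16d, 17b and 19a. Over the 24 clusters, Spearman's rho between median CG sites and median level was 0.87 in C57BL/6J controls and 0.81 in FVB/N controls. Over the 669 promoters it was 0.71 and 0.62, against -0.07 and -0.05 over all 22480 promoters, which hold up to 303 CG sites. At 1 to 5, 6 to 10, 11 to 20 and 21 to 47 CG sites, C57BL/6J control medians also rose outside the Olfr genes. They were 0.9, 1.9, 7.2 and 11.4 there, and 0.9, 1.4, 4.9 and 20.5 for the members. These are descriptions across promoters that share libraries.

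**Figure D1:**
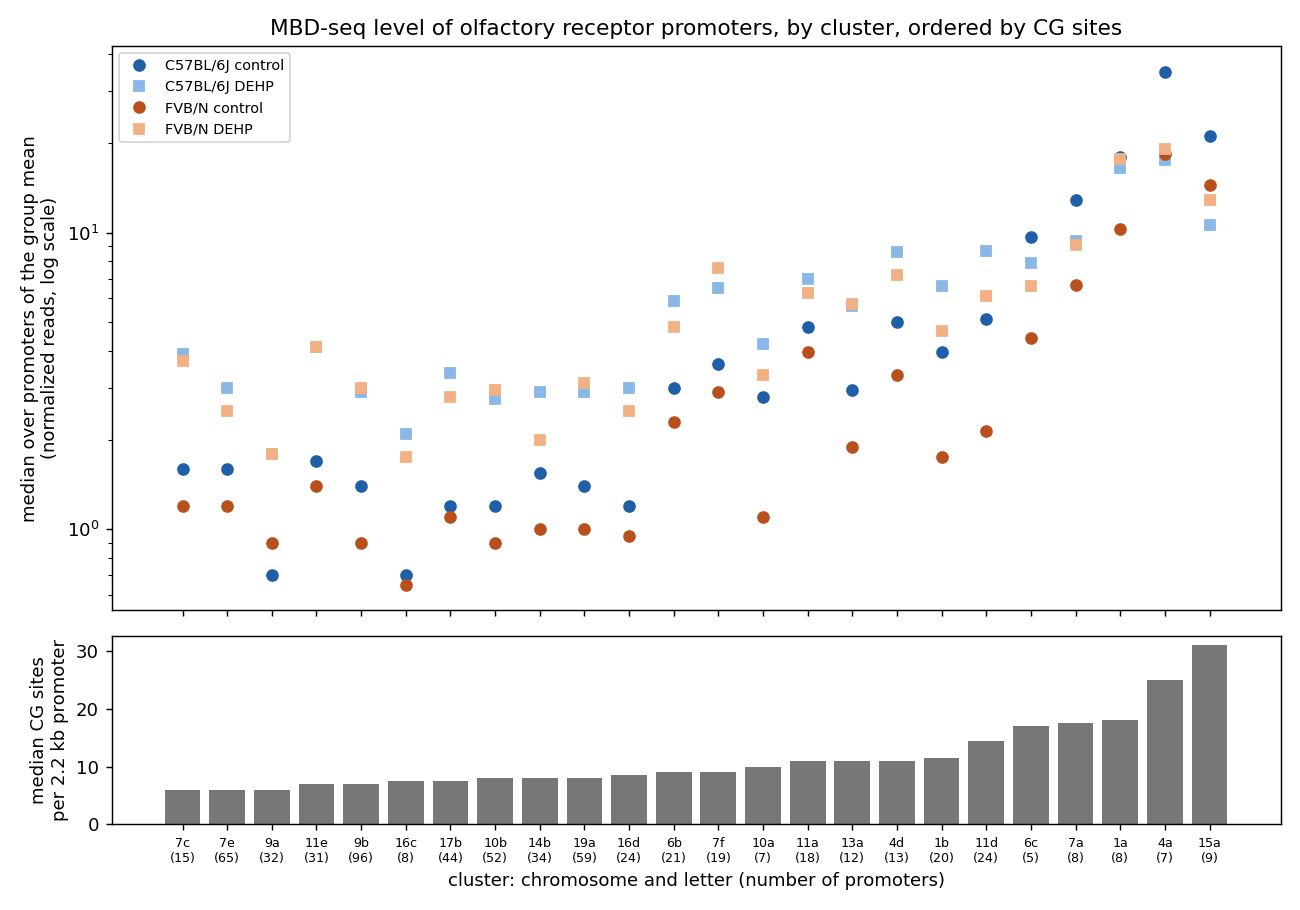
Upper panel, median over the promoters of each cluster of the group mean (normalized reads, log scale) in the 4 groups. Lower panel, median CG sites of the same clusters, which are ordered by it and labelled with their number of promoters. Cluster 4a has the highest C57BL/6J control median (34.9) and 9a and 16c the lowest (0.7).

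Cluster 4a is a group of 7 promoters within 43700608 to 43854491 on chromosome 4. Olfr71, with 36 CG sites, had 57.6 ± 19.2 normalized reads in control and 23.9 ± 8.2 in DEHP males of C57BL/6J, and 33.0 ± 10.9 and 21 ± 3.7 in those of FVB/N. Olfr156 (39 CG sites) had 53.1 ± 12.1, 27.1 ± 7.4, 37.1 ± 14.9 and 23.9 ± 3.0. Olfr157 (40 CG sites) had 45.3 ± 8.5, 22.3 ± 7.2, 27.7 ± 9.0 and 19.5 ± 4.4. In these 3, the C57BL/6J control mean was the highest of the 4 groups. The ranges that mean and SD allow still met, so none was called separated. The lowest of the cluster was Olfr29-ps1 (16 CG sites), with 12.9 ± 6.6, 9.6 ± 3.3, 7.4 ± 5.5 and 8.2 ± 1.4.

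Other members with high levels were Olfr30 on chromosome 11 and Olfr283 on chromosome 15. Olfr30 (25 CG sites) had 35.8 ± 10, 18.3 ± 3.4, 22.4 ± 8.2 and 21.8 ± 4.2 in the same order of groups. Olfr283, in cluster 15a with 46 CG sites, had 39.3 ± 10.3, 17.3 ± 7.8, 19.9 ± 3.6 and 19.0 ± 4.5. Many CG sites did not always go with a high level. Olfr750 on chromosome 14 had the most CG sites of all members (47) but 15.7 ± 9.9, 7.7 ± 2.6, 3.1 ± 2.0 and 4.0 ± 0.8 normalized reads.

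**Figure D2:**
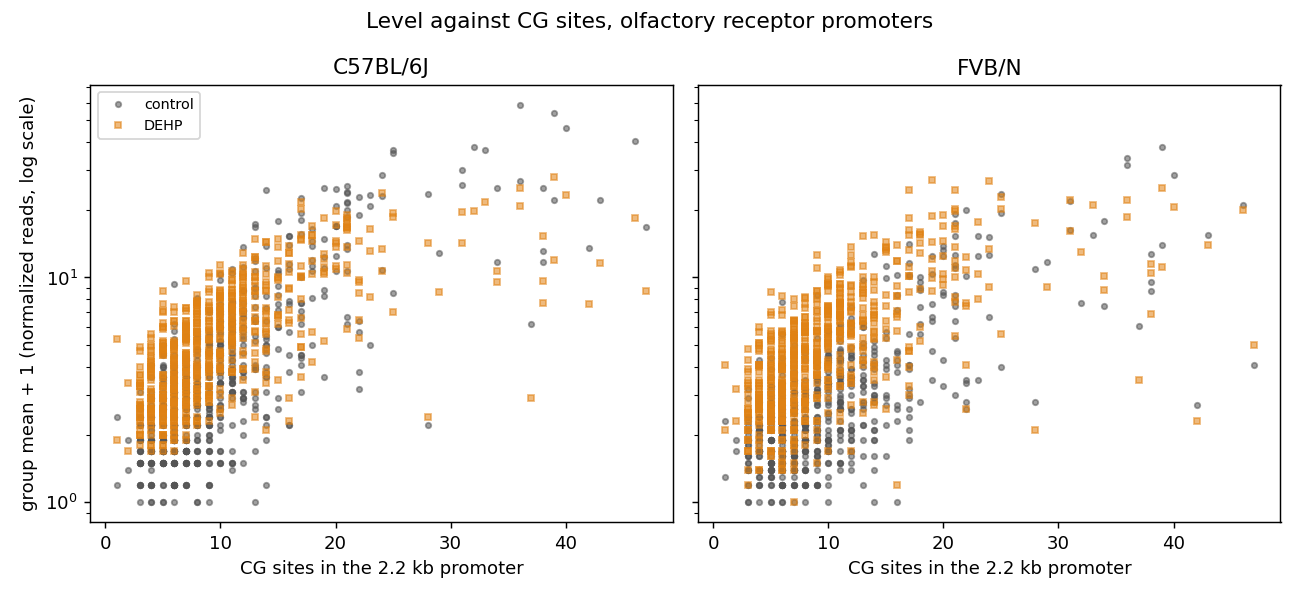
Each point is 1 of the 669 promoters in 1 group, with CG sites on the x axis and the group mean plus 1 (normalized reads, log scale) on the y axis. Below about 20 CG sites the DEHP points (squares) lie mostly above the control points (circles), and above it the C57BL/6J control points reach highest, up to the mean of 57.6 for Olfr71.

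The question of how prenatal DEHP changed promoter methylation was taken up for each strain. Changes are given as the log2 ratio of group means, each plus 1, DEHP over control, on the scale of the deposited values. A promoter was called separated when the ranges that 5 values with the given mean and SD can reach (mean ± 1.79 SD, widened by the rounding of 0.05) did not overlap, so that every library of 1 group must lie above every library of the other. Such promoters are said to rise or fall. The call is a bound and not a test, and it misses promoters. Where groups were not separated, their libraries may or may not overlap. An exact permutation test of 5 against 5 libraries gives its smallest two-sided p, 0.0079, to such a promoter, without adjustment for the number of promoters. DEHP and control DNA were sequenced as separate submissions, each with both strains and with different read lengths, and the effects of treatment and submission cannot be told apart in any DEHP comparison.

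In C57BL/6J, receptor promoters were mostly higher in DEHP. The group mean was higher in 551 of the 669 members (82.4%) and lower in 108, whereas it was higher in 43.5% of all promoters. The median log2 ratio was 0.58, with quartiles of 0.19 and 0.94, against -0.10 over all promoters. Separation was reached by 7 members that rose and 2 that fell. Over all promoters 0.249% rose and 1.42% fell, and of the members 1.05% rose and 0.299% fell. Scaled to equal sums, 22 members rose and 1 fell, with 1.02% and 0.129% of all promoters. With equal medians 7 rose and 3 fell, with 0.222% and 1.88%. The share of falls among the members was thus lower than over all promoters as deposited and with equal medians, but not with equal sums. By ranges of CG sites, as deposited, the members were closer to promoters outside the Olfr genes. At 6 to 10 CG sites 2.01% of the members and 1.74% of those others rose, and 0% of either fell. At 11 to 20 CG sites 0.541% of the members rose and 0.541% fell, with 0.187% and 0.410% of the others. At 21 to 47 CG sites 0% rose and 2.04% fell, with 0.118% and 2.56% of the others.

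Among those that rose in C57BL/6J, Olfr61 on chromosome 7 went from 1.2 ± 0.8 to 6.8 ± 1.6 normalized reads, a log2 ratio of 1.83. Olfr730 on chromosome 14 went from 0.2 ± 0.5 to 4.3 ± 1.3 (2.14). Olfr111 on chromosome 17 was listed at 0 in both control groups and had 3.1 ± 1.0 and 3.3 ± 2.2 in the DEHP groups of C57BL/6J and FVB/N. The others were Olfr123, Olfr328, Olfr887 and Olfr1346. The 7 held 7 to 12 CG sites, had at most 1.9 normalized reads in controls and lay in 6 clusters. In FVB/N, which the call did not use, DEHP means were higher at 7 of 7, as they were at 89.8% of all members.

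The members that fell in C57BL/6J were CG-rich for this family. Olfr212 on chromosome 6 (34 CG sites) went from 23.9 ± 1.6 to 8.5 ± 2.1, a log2 ratio of -1.39. In FVB/N it had 16.9 ± 4.8 in controls and 7.8 ± 4.4 in DEHP, which were not separated. Olfr5 on chromosome 7 (15 CG sites) went from 16.8 ± 2.8 to 9.0 ± 1.2 (-0.83), and in FVB/N from 8.9 ± 10 to 13.4 ± 6.9. Only 75% of the sampled 51-base words of the Olfr212 probe and 78.7% of those of Olfr5 were unique in the genome, against a median of 97.2% over the members, and ambiguous read-pairs had been discarded. The Olfr5 probe also overlaps that of Olfr1347. Scaled to equal sums of the groups, Olfr5 was no longer separated.

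In FVB/N, receptor promoters were mostly higher in DEHP as well. The mean was higher in 601 members (89.8%) and lower in 59, against 69.1% of all promoters that were higher. The median log2 ratio was 0.82, with quartiles of 0.45 and 1.20, against 0.35 over all promoters. Less the median of all promoters, the members stood at 0.47 here and at 0.69 in C57BL/6J. Separation was reached by 20 members that rose (2.99%) and by 0 that fell, while 0.774% of all promoters rose and 0.859% fell. These counts hung on the scale. With groups scaled to equal medians, 3 members rose and 4 fell, while 0.125% of all promoters rose and 3.25% fell. As deposited, 2.21%, 2.68%, 4.86% and 0% of the members rose at 1 to 5, 6 to 10, 11 to 20 and 21 to 47 CG sites. Of promoters outside the Olfr genes 0%, 1.25%, 1.83% and 0.544% rose in these ranges, and 0%, 0%, 0.112% and 1.12% fell.

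Olfr453 on chromosome 6 (17 CG sites) rose in FVB/N from 1.9 ± 2.1 to 14.4 ± 2.2 normalized reads, a log2 ratio of 2.41. In C57BL/6J it had 6.1 ± 4.0 in controls and 13.9 ± 3.6 in DEHP, so the DEHP groups of both strains stood at a like level. Olfr484, in cluster 7e, rose from 0.4 ± 0.6 to 5.5 ± 1.1 (2.22). Olfr329-ps on chromosome 11 rose from 0.9 ± 1.0 to 7.5 ± 0.7 (2.16), but had 4.0 ± 2.7 and 4.3 ± 2.0 in C57BL/6J. The 20 promoters lay on 9 chromosomes and in 11 clusters, held 5 to 17 CG sites and had between 0.2 and 3.9 normalized reads in controls. In C57BL/6J, their DEHP means were higher at 20 of 20, with a median log2 ratio of 0.60, close to that of all members (0.58). No member was separated in both strains, and over all 22480 promoters 0 rose in both and 39 fell in both.

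Clusters were alike in the direction of the DEHP ratio, apart from a few. In C57BL/6J the cluster median was above 0 in 21 of 24 clusters and went from -0.95 in 4a to 1.31 in 16c. Beside 4a, 15a (-0.40) and 7a (-0.12) were below 0. In FVB/N it was above 0 in 23 clusters, from -0.18 in 4a to 1.34 in 10a. Taken relative to the median of all promoters, 21 clusters in C57BL/6J and 22 in FVB/N were above it under each of 3 scalings (as deposited, equal sums, equal medians), and 4a and 15a were below it under each in both strains. On the log2 scale itself 15a changed direction in C57BL/6J with equal sums (0.14) and in FVB/N with equal sums (-0.06) or equal medians (-0.65), and 7a changed direction in C57BL/6J with equal sums (0.40) and in FVB/N with equal medians (-0.07). With equal medians 1a (-0.06) and 6c (-0.02) were below 0 for C57BL/6J as well.

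**Figure D3:**
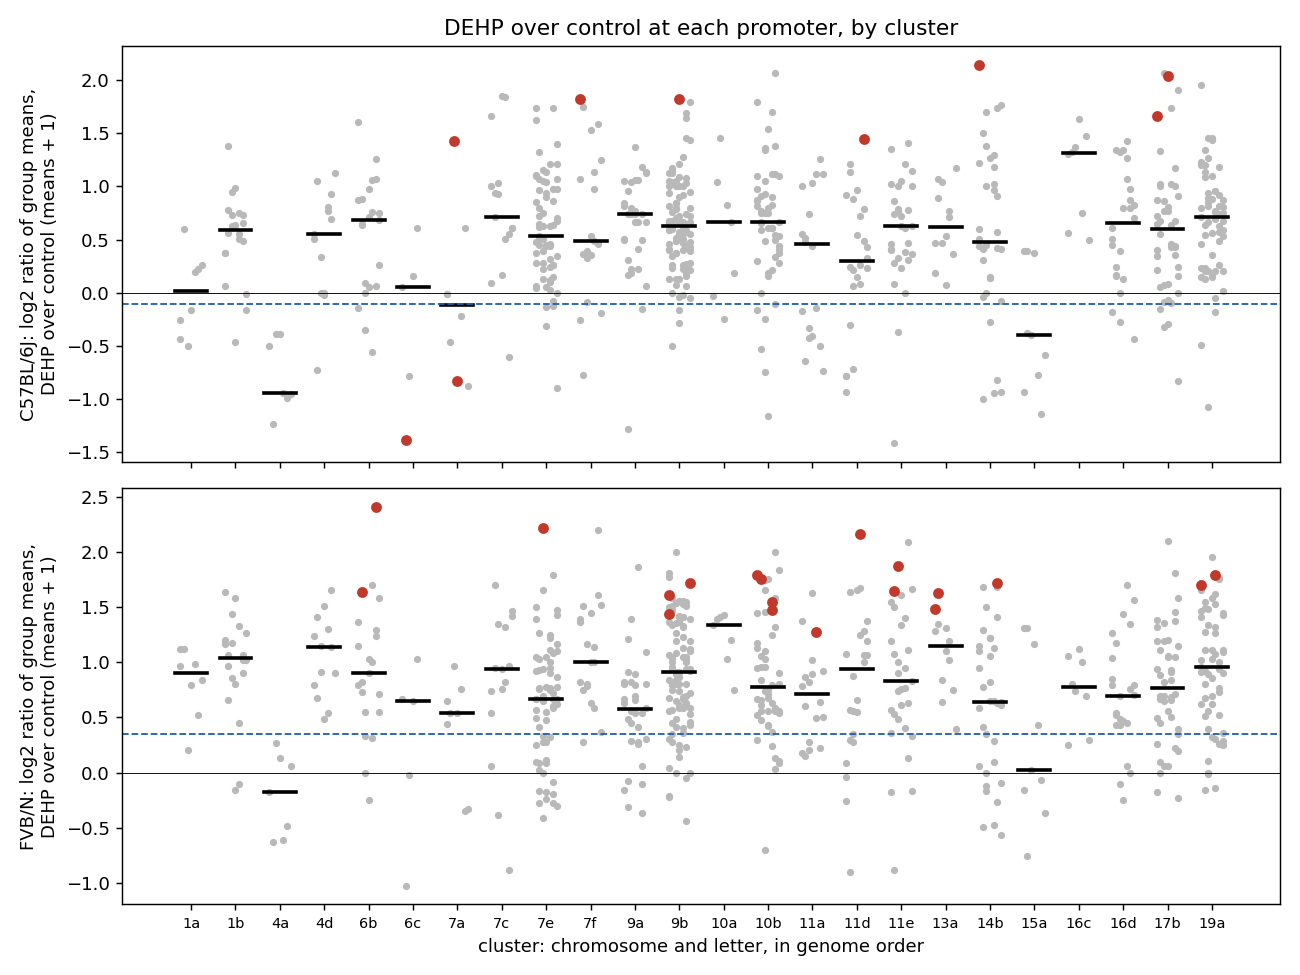
Log2 ratio of group means, DEHP over control (each mean plus 1), for every promoter (gray points) of the 24 clusters, with the cluster median as a black bar, in C57BL/6J (upper panel) and FVB/N (lower panel). Red points are separated promoters and the dashed line is the median of all promoters (-0.10 and 0.35). Clusters 4a and 15a lie lowest in both strains.

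Promoters of 1 cluster differed among themselves, with an interquartile width of the C57BL/6J ratio of 0.71 as a median over the 24 clusters. In cluster 15a the direction went with CG sites. Its 6 promoters with 29 or more CG sites had lower C57BL/6J means in DEHP, such as Olfr281 with 21.1 ± 5.5 in controls and 10.6 ± 1.2 in DEHP. Its 3 promoters with 17 or fewer CG sites had higher ones, such as Olfr285 (13 CG sites) with 6.4 ± 2.7 and 8.6 ± 2.9. Of these, Olfr287 and Olfr288 share 1 probe and thus the same values.

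Over all members the ratio was lower at more CG sites in C57BL/6J, with a Spearman's rho of -0.34, whereas rho was 0.04 in FVB/N. Over the 24 clusters rho was -0.75 and -0.10. At 1 to 5 CG sites (136 members) the median log2 ratio was 0.72 for C57BL/6J and 0.69 for FVB/N. At 6 to 10 (299 members) it was 0.68 and 0.91, at 11 to 20 (185 members) 0.39 and 0.95, and at 21 to 47 (49 members) -0.50 and 0.09. Promoters outside the Olfr genes in the same ranges of CG sites had 0.53 and 0.44, then 0.57 and 0.76, then 0.10 and 0.69, and at last -0.36 and 0.23. In each range the members differed from these other promoters by 0.29 or less on the log2 scale. CG sites were not equal within the upper ranges. Their median was 13 in the members and 16 in the others at 11 to 20, and 25 and 33 at 21 to 47.

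Clusters were also compared at like CG content. The 10 clusters with at least 10 promoters of 6 to 10 CG sites (234 promoters) had median C57BL/6J log2 ratios between 0.50 in 14b and 0.87 in 16d, and FVB/N ratios between 0.52 in 16d and 1.19 in 6b. Over all of their promoters the same 10 clusters went from 0.47 in 14b to 0.74 in 9a for C57BL/6J. For FVB/N they went from 0.57 in 9a to 0.96 in 19a. These clusters had medians of only 6 to 9 CG sites over all of their promoters, and clusters with higher medians were not among them. The comparison was therefore no test of CG content across all clusters. At 6 to 10 CG sites the levels of the 10 clusters in C57BL/6J controls still differed, from 0.7 normalized reads in 9a and 16d to 2.8 in 6b. In C57BL/6J DEHP they went from 2.1 in 9a to 6.0 in 6b.

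The strain-specific comparison asks whether DEHP acted differently in both strains. The FVB/N log2 ratio less the C57BL/6J log2 ratio had a median of 0.32 over the members and 0.50 over all promoters. With equal sums the median over the members was -0.09 and with equal medians -0.07, so its sign came with the scale of the groups. No member was separated in opposite directions. In 514 members (76.8%) the mean was higher in DEHP in both strains, against 37.3% of all promoters. In 78 members (11.7%) it was lower in C57BL/6J and higher in FVB/N, against 30.6% of all promoters. Across the members the ratios of both strains had a Spearman's rho of 0.28.

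Cluster 1a holds 8 promoters with 0 variants between the strains. Its median was 18.0 normalized reads in control and 16.55 in DEHP males of C57BL/6J, and 10.3 and 17.65 in those of FVB/N. Most of this difference went with the scale of the groups, since its strain ratio in controls was -0.65 as deposited, -0.07 with equal sums and -0.02 with equal medians, and its DEHP ratios of 0.02 and 0.90 became 0.52 and 0.83 with equal sums. Olfr12 had 23.9 ± 13.8, 17.4 ± 5.5, 11.4 ± 13.0 and 26.0 ± 5.7. Olfr1411 had 16 ± 6.2 and 18.8 ± 5.4, and 12.2 ± 14.8 and 18.0 ± 5.3. In FVB/N controls the SD was above the mean at 5 of the 8 promoters, so single libraries must differ by far in that group. At means of 2 or more, this was so for 63 members in FVB/N controls and 16 in C57BL/6J controls, and for 4 and 2 members in the DEHP groups of C57BL/6J and FVB/N.

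Levels were also compared between strains. In controls, the mean was lower in FVB/N than in C57BL/6J in 482 of the members, and the median log2 ratio (FVB/N over C57BL/6J) was -0.40, against -0.54 over all promoters. In the DEHP groups it was -0.11 against -0.04. Scaled to equal sums or equal medians, the median of the members in controls was 0.0048 or 0.05, so that no direction for the family can be given. In controls, 7 members were separated lower in FVB/N (1.05%, with 1.06% of all promoters) and 1 higher (0.149%, with 0.0267% of all promoters). In the DEHP groups, 1 was lower (0.149%, with 0.307% of all promoters) and 0 higher (0.0311% of all promoters).

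Variants between the strains were unevenly spread over clusters. The table counts them in the promoter, with a window that its header writes as -200 to +2000, so it may not be the window of the probe. Of the 669 members, 357 had 0 variants. In 6 of the 24 clusters no promoter had any (139 promoters), among them all 65 of 7e, all 31 of 11e and all 18 of 11a, and in 10b 49 of 52 had none. In 3 clusters every promoter had some (59 promoters), namely 1b with a median of 32 and a maximum of 65, 14b with a median of 13 and 6c with 7. Cluster 11d had a median of 18.5. So clusters of 1 chromosome could differ from 0 to many variants, as 1a and 1b or 11a and 11d.

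Strain ratios were lower, as medians, at promoters with many variants, although the relation was weak. The authors aligned reads of both strains to mm10, the reference genome, which is that of C57BL/6J. How variants affected the alignment of FVB/N reads or their CG sites was not tested. Fewer FVB/N reads at such promoters therefore need not mean less methylation. Over the 669 members Spearman's rho between variants and strain ratio was -0.19 in controls and -0.16 between the DEHP groups. In controls the median log2 ratio was -0.32 at 0 variants (357 members), -0.37 at 1 to 5 (156), -0.54 at 6 to 15 (87) and -0.75 above 15 (69). In the DEHP groups, which hold other males, it was -0.07, -0.05, -0.18 and -0.40. Among the 24 clusters, the lowest medians in controls as deposited were those of 1b (-0.87) and 11d (-0.83), both rich in variants. Clusters 4a (-0.73) and 15a (-0.72), with few or no variants, were nearly as low on that scale only. With equal sums 1b had -0.46, 11d -0.27, 4a -0.11 and 15a -0.15. With equal medians these were -0.45, -0.23, -0.06 and -0.11. Cluster 10a, with a median of 0 variants, had -0.27 with equal sums and -0.25 with equal medians. In the DEHP groups as deposited, 16c without variants (-0.48) lay between 1b (-0.57) and 11d (-0.40). Over the 24 clusters rho between median variants and median strain ratio was -0.31 in controls and -0.43 in DEHP. Of the smaller clusters, 8a (-1.20) and 7b (-1.10) were lower still in controls as deposited. Promoters outside the Olfr genes with more than 15 variants had -0.89 in controls and -0.42 in DEHP, so this was not a trait of receptors alone. Of the 7 members separated lower in FVB/N controls, 6 had more than 15 variants and 0 had none. With equal sums or equal medians, 2 members were separated lower there, so these calls rest largely on the deposited scale. Over all promoters 5.62% of those with more than 15 variants and 0.322% of those with 0 variants were separated lower in FVB/N controls. Between the DEHP groups these shares were 2.24% and 0.0577%.

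**Figure D4:**
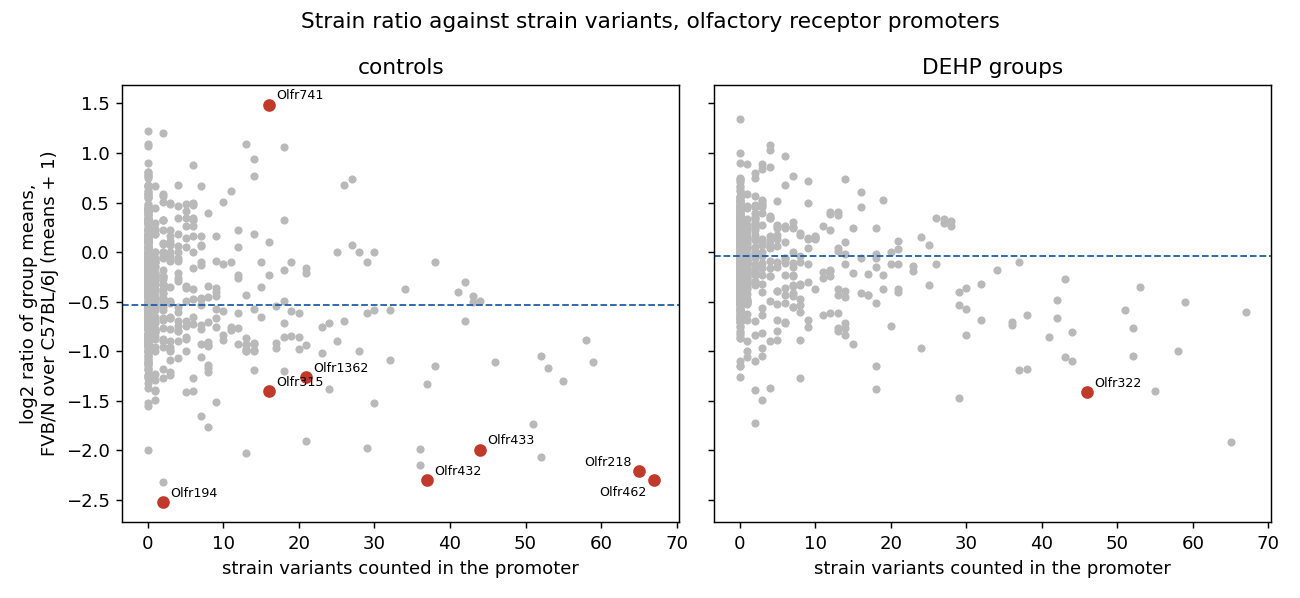
Log2 ratio of group means, FVB/N over C57BL/6J (each mean plus 1), against the number of strain variants counted in the promoter, for the 669 members in controls (left) and DEHP groups (right). Separated promoters are red and named, and the dashed line is the median of all promoters (-0.54 and -0.04). Of 7 members separated lower in controls, 6 have more than 15 variants.

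Olfr462 on chromosome 11, at 87889695 to 87891894, had the most variants (67) and 32 CG sites. It had 36.9 ± 6.6 normalized reads in C57BL/6J controls and 6.7 ± 5.8 in FVB/N controls, a log2 ratio of -2.30, and 18.8 ± 5.8 and 12.0 ± 2.5 in the DEHP groups. Olfr218 in cluster 1b (65 variants) had 7.8 ± 1.4 against 0.9 ± 1.0 in controls, and 5.4 ± 2.9 against 0.7 ± 0.7 in the DEHP groups, the lowest strain ratio of all members in DEHP (-1.91) though not separated there. Olfr432 in the same cluster (37 variants) had 12.8 ± 3.0 against 1.8 ± 0.6 (-2.30), and 13.4 ± 3.0 against 5.3 ± 1.8.

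Olfr194 on chromosome 16 was separated with only 2 variants, with 8.2 ± 2.9 against 0.6 ± 0.6 in controls (-2.52) and 5.8 ± 2.1 against 1.6 ± 0.8 in DEHP. Neither Olfr194 nor Olfr462 stayed separated in controls with equal sums or equal medians. Olfr322 on chromosome 11 (46 variants) was the single member separated in the DEHP groups, with 7.0 ± 1.4 against 2.0 ± 0.7 (-1.42), and had 3.1 ± 1.4 against 0.9 ± 1.4 in controls. Of the 7 promoters lower in FVB/N controls, 6 were lower in FVB/N in the DEHP groups as well, as were 58.7% of all members. The median log2 ratio of the 7 there was -0.81, against -0.11 over all members. The exception was Olfr1362, with 7.2 ± 3.9 against 7.4 ± 1.5 in the DEHP groups. On the other side, Olfr741 on chromosome 14 (16 variants) had 1.8 ± 0.6 in FVB/N controls and was listed at 0 in those of C57BL/6J, with 1.6 ± 1.8 and 1.5 ± 1.4 in the DEHP groups. Olfr427 (59 variants) had 3.1 ± 2.2 against 0.9 ± 0.9 in controls, which were not separated.

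**Figure D5:**
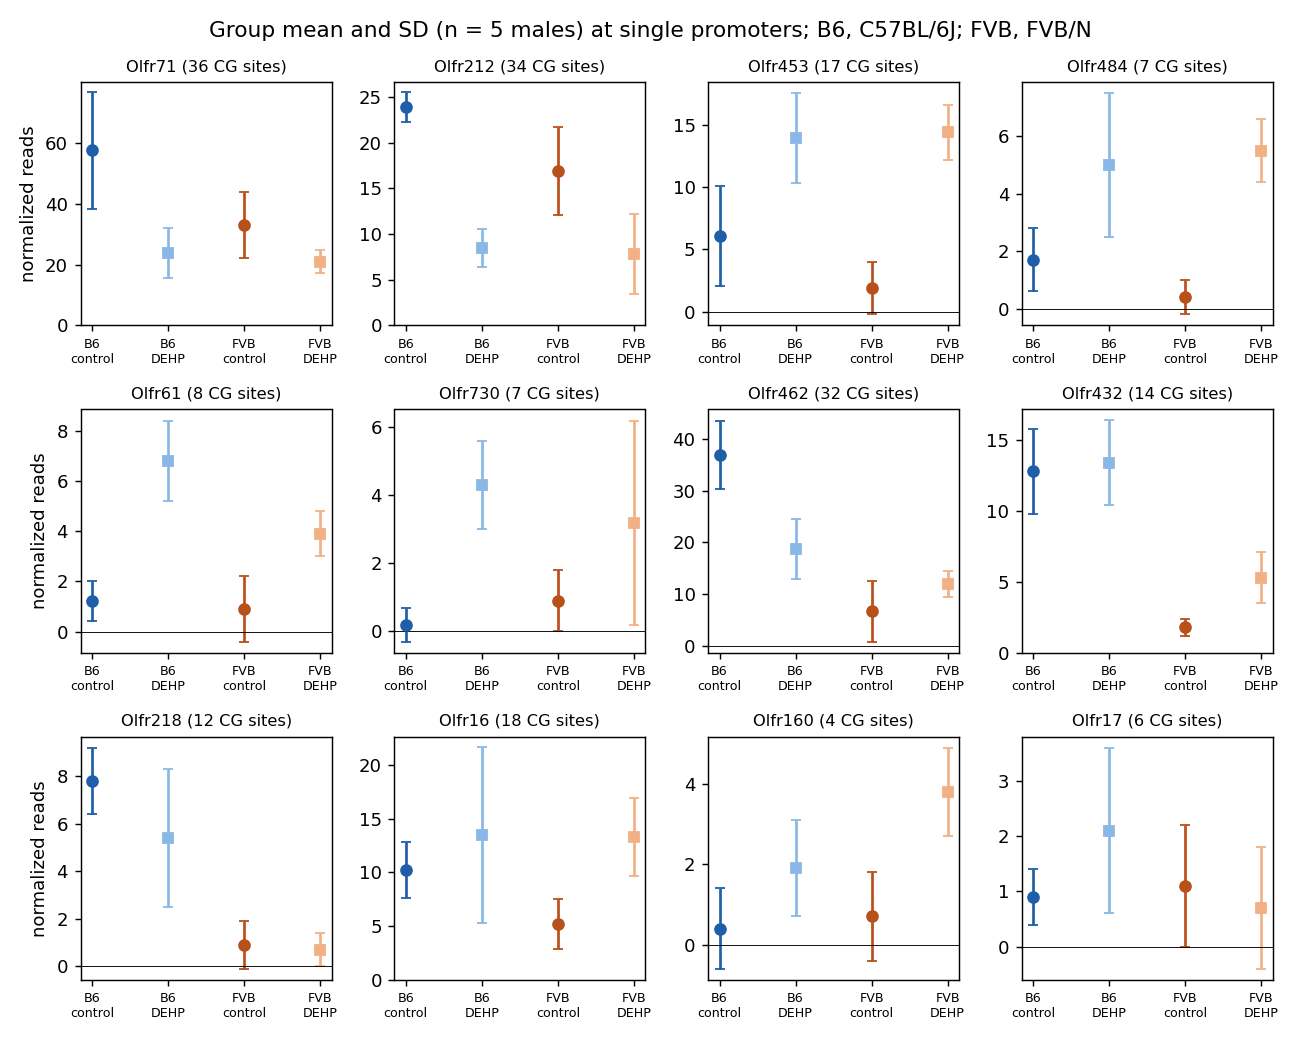
Group mean (points) and SD (bars, n = 5 males) in normalized reads at 12 promoters, with circles for controls and squares for DEHP. Olfr71 and Olfr212 are highest in controls, Olfr453, Olfr484, Olfr61 and Olfr730 in DEHP, and Olfr462, Olfr432 and Olfr218 have their lowest values in FVB/N groups.

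Receptors that are well known from other work were looked at one by one. Olfr16, the lyral receptor MOR23, which is also expressed in male germ cells, had 10.2 ± 2.6, 13.5 ± 8.2, 5.2 ± 2.3 and 13.3 ± 3.6 normalized reads in the 4 groups, with 18 CG sites. Olfr1393 (21 CG sites) had 12.9 ± 6.1, 9.5 ± 2.2, 5.4 ± 2.2 and 10.9 ± 2.4. Neither was separated in any comparison. Olfr160 (M72) with 4 CG sites had 0.4 ± 1.0, 1.9 ± 1.2, 0.7 ± 1.1 and 3.8 ± 1.1. Olfr2 (I7), the octanal receptor, had 0.5 ± 0.7, 1.8 ± 1.9, 0.7 ± 0.6 and 0.8 ± 1.0. Olfr17 (P2) had 0.9 ± 0.5, 2.1 ± 1.5, 1.1 ± 1.1 and 0.7 ± 1.1. The last 3 were at or below 3.8 in every group, and none of the 5 was separated. Olfr136 on chromosome 17 was listed at 0 in both FVB/N groups, with 0.5 ± 0.6 and 1.4 ± 0.9 in C57BL/6J.

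Expression values from an independent dataset of testis cells, on a scale that is not stated, were given for 23 members. In spermatids their median was 4.21, against 5.68 over the 17133 genes with a value, and at 20 of the 23 every cell type was below the median of all genes. Among the male germ cells, 21 of 23 had their highest value in spermatids, a share that was not computed over all genes. The steps were small, with member medians of 3.76 in spermatogonia, 4.05 in spermatocytes and 4.21 in spermatids. The highest were Olfr701 (7.08 in spermatids, 3.84 in spermatogonia), Olfr112 (6.74 and 3.88) and Olfr159 (5.78 and 4.89). Olfr701 had 2.1 ± 1.6, 2.2 ± 1.2, 0.7 ± 1.0 and 1.7 ± 0.5 normalized reads at its promoter and Olfr112 had 1.7 ± 0.7, 3.2 ± 1.9, 1.6 ± 1.5 and 3.9 ± 1.6, whereas Olfr159, in cluster 4a, had 18.0 ± 5.9, 13.5 ± 2.6, 9.2 ± 5.8 and 11.3 ± 3.1. Olfr90 was the 1 member marked as found in the sperm proteome, with 7.7 ± 5.2, 9.1 ± 2.1, 5.6 ± 5.3 and 8.3 ± 1.7. No member carried the gene ontology marks for reproduction, reproductive process, spermatogenesis or sperm part.

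Other genes of the olfactory pathway were described beside the receptors. Of 27 listed genes for transduction, receptor transport and receptor choice, 27 had a promoter in the table, with a median of 71 CG sites. None was separated between DEHP and control in either strain as deposited, where at most 1.42% of all promoters were separated in 1 direction, and 2 fell in each strain with equal medians. For C57BL/6J their median log2 ratio was -0.12, with -0.10 over all promoters and 0.58 over the receptors. For FVB/N it was 0, with 0.35 and 0.82. Omp, the marker of mature olfactory neurons, had 97.6 ± 28.1, 26.5 ± 12.1, 69.4 ± 20.6 and 28.7 ± 9.3 normalized reads, and was not separated in any comparison. Ano2, the chloride channel of the cilia, was separated lower in FVB/N controls (9.7 ± 4.0) than in C57BL/6J controls (37.1 ± 8.7), and so was Kdm1a, a histone demethylase needed for receptor choice, with 2.0 ± 0.6 against 5.7 ± 1.3. With equal sums or equal medians 0 of the 27 were separated there, so both calls ended.

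Olfactory promoters of other locations had like values. The 275 Olfr promoters on chromosome 2 had medians of 1.2, 2.7, 0.9 and 2.3 normalized reads in the 4 groups and median log2 ratios of 0.74 for C57BL/6J and 0.82 for FVB/N. The 124 in the chromosome 7 window had 2.25, 4.05, 1.2 and 3.7, with ratios of 0.56 and 0.82. The chromosome 2 promoters had a median of 7 CG sites and a maximum control mean of 22.2 in C57BL/6J, whereas those of the chromosome 7 window reached 37.4, and the members 57.6.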

How the data were processed

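MBD-seq of sperm DNA from 20 males (5 in each of 4 groups, taken from the labels) was used. Bowtie 0.12.7 and mm10 served for the alignment by the authors, who dropped ambiguous pairs and pairs lacking CpG, and who normalized the pairs per promoter by edgeR. As a signal, the group mean and SD of normalized reads were taken as the authors deposited them, to 1 decimal. Values of single libraries were not used, so the depth per library is unknown and only averages per treatment were given. How depth bears on the SD, on the few levels of low means and on the minimum of read-pairs was therefore not tested. Numbers of CG sites and variants are the authors' annotations as deposited, and their expression values, handled as a score, come from an independent dataset of unstated scale. Columns with the authors' fold changes, p-values and FDR for DEHP and strain comparisons were not used. The planned tests need single libraries, so separation of group ranges (1.79 SD each way, rounding 0.05) and log2 ratios of means (pseudocount 1) replaced them. The separation rule was tested on simulated data.

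Clusters joined members within 1 Mb. Sequence features came from GRCm38.p6 (NCBI RefSeq), with 51-base words sampled every 20 bp for uniqueness, and exons and starts from GENCODE vM21. For a member, CG sites as deposited equalled those of that genome in 663 of 669. Alternatives were equal sums, equal medians, a pseudocount of 0.1, a mean of at least 1, a unique share of at least 90% (added after seeing the data), and gaps of 0.5 and 2 Mb. Members, gene lists and the naming rule were chosen with earlier results of these data known. Named were known receptors, the 3 separated members with the largest log2 ratio per comparison and direction, the 5 highest means, members listed at 0 in 2 or more groups, the 3 with most CG sites, variants or germ cell expression, and those in the sperm proteome. Olfr12, Olfr285, Olfr1411, Olfr29-ps1, Olfr1362 and the remaining separated members were named after their values were seen. Calculations ran in Python 3.11.15 (numpy 2.4.6, pandas 2.3.3) and plots in matplotlib 3.10.9.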

Additional observations from a re-analysis of the deposited data

How the results depend on the processing

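Counts of separated members moved most with the scale of the groups. With groups scaled to equal sums, 22 members rose and 1 fell in C57BL/6J DEHP (7 and 2 as deposited), with 1.02% and 0.129% of all promoters (0.249% and 1.42%), while 2 were higher and 2 lower in FVB/N controls (1 and 7), with 0.111% and 0.307% (0.0267% and 1.06%). With equal medians, 3 rose and 4 fell in FVB/N DEHP (20 and 0), with 0.125% and 3.25% of all promoters (0.774% and 0.859%), and 3 were higher and 2 lower in FVB/N controls, with 0.129% and 0.289%. With a unique share of at least 90%, which leaves 539 members, 0 fell in C57BL/6J DEHP and 0 were lower in FVB/N DEHP (2 and 1). Of the pathway genes, 2 fell in C57BL/6J DEHP and 2 in FVB/N DEHP with equal medians (0 and 0), and 0 were lower in FVB/N controls with either scaling (2). The median strain ratio of the members in controls turned from -0.40 to 0.0048 with equal sums and 0.047 with equal medians. The median difference of the DEHP ratios between strains turned from 0.32 to -0.088 and -0.065. Of the single promoters, Olfr194 and Olfr462 were no longer separated under either scaling and Olfr5 under equal sums. The cause of these moves was not tested beyond the scaling itself. The median DEHP ratio of the members stayed above 0 under all 5 alternatives in both strains, from 0.51 to 0.93 for C57BL/6J and from 0.39 to 1.22 for FVB/N, while that of all promoters went from -0.16 to 0.33 and -0.18 to 0.46. Clusters of 5 or more numbered 27 with a gap of 0.5 Mb and 24 with 2 Mb.

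No paired analysis was possible because the values used here are group means. Values per library were not used here. Leaving out a library in turn was not run either, since it needs those values. With about 1 read per library at many members, a small change at a single promoter was not detectable.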
